A study of Mus musculus with 6 samples.

Results

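The 9 genes described here were listed as genes of glycogen synthesis and breakdown, and not all of them encode enzymes of that pathway. They were followed in brown adipose tissue (BAT) with and without the microRNA miR-22. They were taken by symbol (*Gys1*, *Gys2*, *Gbe1*, *Ugp2*, *Pgm1*, *Pgm2*, *Pygl*, *Pygb* and *Ppp1r3c*), and every array probe whose RefSeq accession belongs to one of them was used. This gave 11 probes for 9 of the 23462 genes that the array could be matched to, with 2 probes each for *Gbe1* and *Pygb* and 1 for each of the other 7 genes. BAT of 3 wild-type (WT) and 3 miR-22 knockout (KO) mice was hybridised to 6 Agilent mouse arrays with 1 dye and 1 mouse per array. The mice were male and 8 weeks old. The KO line, bought from a repository, lacks miR-22 in every tissue, so that a difference in BAT need not start in the adipocyte. No treatment separates the groups. Each replicate is a separate mouse, and p-values measure the spread between these mice.

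Glycogen is a branched polymer of glucose. Phosphoglucomutase turns glucose-6-phosphate into glucose-1-phosphate, UDP-glucose pyrophosphorylase activates it, glycogen synthase adds it to a growing chain and the branching enzyme makes the side chains. Glycogen phosphorylase releases glucose-1-phosphate again, which phosphoglucomutase returns to glycolysis, and targeting subunits of protein phosphatase 1 bring the phosphatase to the particle, where it activates the synthase and inactivates the phosphorylase. Brown adipocytes store glycogen, and the amount changes with feeding and with cold exposure. The study asked how miR-22 affects glucose use and heat production in this tissue.

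The KO mice lack both mature strands of miR-22, which are shown because they are the deleted sequence. They are written 5′ to 3′ from RefSeq with bases 2 to 8, the seed that pairs with targets, in capitals. They lie on the plus strand of GRCm38.p6 at chr11:75463772-75463793 for the 3p strand and chr11:75463734-75463755 for the 5p strand.
miR-22-3p: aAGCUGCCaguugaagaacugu
miR-22-5p: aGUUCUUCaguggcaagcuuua
The array has no probe for the mature strands. The host transcript *Mir22hg*, which also carries the hairpin, read 1.20, 1.69 and 1.22 for the WT against 2.02, 2.11 and 2.23 for the KO mice, as log2 of the signal over the 75th percentile of its array. It was higher by 0.75 (SE 0.18) with groups that did not overlap, which does not check the deletion itself.

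All values below are on this log2 scale unless another is named, and they can be compared between mice for 1 probe but not between probes. Of the 10 genes listed as brown adipocyte markers, 10 were well above background on all 6 arrays, and the mean of the list lay between 3.01 and 3.83. It was 0.33 lower in KO and the list of general adipocyte genes 0.22 lower, with groups that overlapped, and the latter turned to 0.048 under quantile normalization. The lists of white adipocyte, erythroid, lymphocyte and hepatocyte genes were higher in KO without overlap, by 0.41, 0.15, 0.36 and 0.55. Their group means were low, from -5.52 to -0.65, and dim genes were higher in KO in general. With marked spots kept, brightness deciles 1 to 5 of all tested genes had median differences of 0.15, 0.19, 0.16, 0.09 and 0.03. Its part in the lists was not tested. Of 10 erythroid genes 8 were matched, and 5 were above background on all 6 arrays. Under normexp background correction the erythroid and hepatocyte lists turned to -0.020 and -0.059, and the lymphocyte difference shrank. The lymphocyte list nearly met between the groups, at -4.411 in WT2 and -4.409 in KO2, and 6 of its 10 genes were above background on all 6 arrays. The part of these shifts in the members' differences was not tested. Of 10 hepatocyte markers, 5 were above background on no array. The list of 20 skeletal muscle genes spanned a wide range, from -4.35 in WT3 to 3.36 in KO2, so the tissue of different mice carried unequal levels of muscle transcripts. Across 9 marker lists the lowest exact permutation p (two-sided) was 0.1, the smallest that 3 against 3 mice allow, and 0.225 after adjustment. The arrays of WT3 and KO1 held more spots marked by the scanner software as uneven or as outliers, 17.1% and 15.1% against 4.87% to 6.12% on the other 4. Of the 66 member spots 20 were marked, 12 of them among the 22 on WT3 and KO1. The main fit leaves marked spots out and needs 2 values per group, which left 7 of the 11 probes and 6 of the 9 genes. *Gys2*, *Pygl* and *Ugp2* could be tested once marked spots were kept. All 11 probes were well above background on all 6 arrays.

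**Figure D1:**
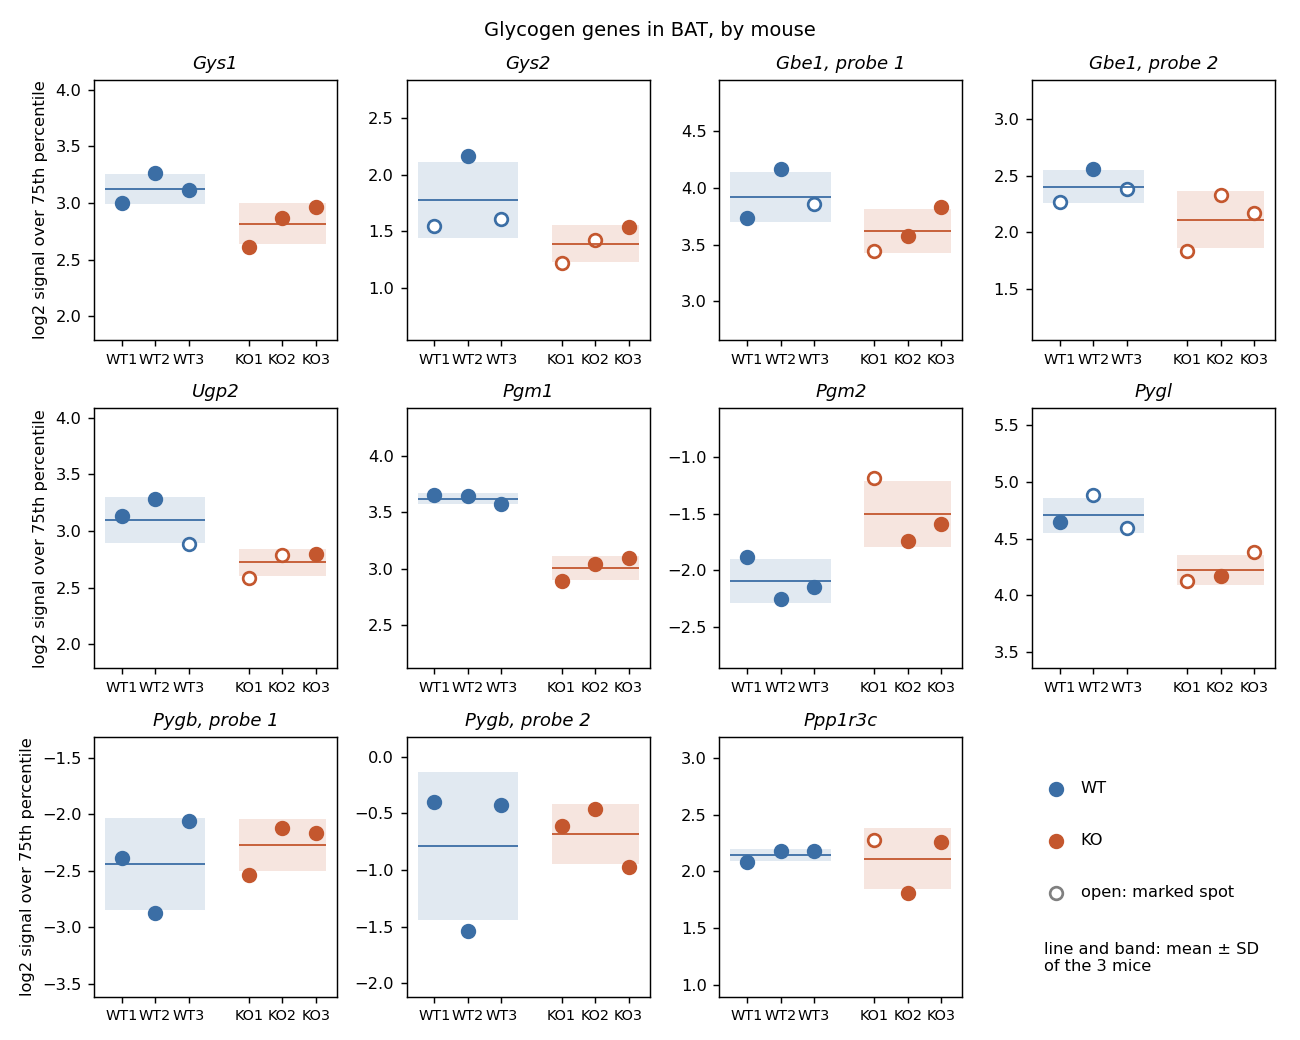
Log2 signal over the 75th percentile of the array (y axis, the same span in each panel) for each of the 11 member probes in each mouse (x axis). Filled points are unmarked spots, open points spots marked by the scanner software, and lines and bands the mean ± SD of the 3 mice; Pgm1, Gys1, Gys2, Ugp2 and Pygl have all KO points below all WT points, and Pgm2 has them above. Probe 1 is A_51_P273684 for Gbe1 and A_51_P485810 for Pygb.

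Of the 2 phosphoglucomutases, *Pgm1* was lower in KO and passed the test at the gene level in every setting run. *Pgm2* had a higher mean, and whether it passed varied with its marked spot and with the setting. The symbols of *Pgm1* and *Pgm2* need care. Their symbols were exchanged between annotations, so they are identified by accession and place in the genome. *Pgm1* here is the enzyme that interconverts glucose-1-phosphate and glucose-6-phosphate, encoded on chromosome 4 and called *Pgm2* in older mouse annotations. *Pgm2* is its relative on chromosome 5, formerly *Pgm1*, which acts mainly on pentose phosphates.

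The *Pgm1* probe read 3.65, 3.65 and 3.57 in WT against 2.89, 3.04 and 3.10 in KO, with no marked spot. The WT mean was 3.62 ± 0.05 and the KO mean 3.01 ± 0.11 (SD, n = 3 each), and the groups did not overlap. *Pgm1* was lower by 0.61 on the log2 scale (SE 0.13, 95% confidence interval -0.92 to -0.31), which is 65.4% of the WT level, at an unadjusted p of 0.00214 and an adjusted p of 0.0916 from limma. Its difference kept its direction and an unadjusted p below the study's threshold of 0.05 in all 20 alternative settings of the gene-level fit. Values ran from -0.66 to -0.38, with a highest p of 0.0364 from limma. Settings were changed one at a time, except that keeping marked spots was also combined with quantile normalization. In the fit of every probe, its probe passed with marked spots left out but not once the slide row was made a block.

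The *Pgm2* probe read -1.88, -2.25 and -2.15 in the WT and -1.18, -1.74 and -1.59 in the KO mice, where the spot of KO1 was marked. Every KO mouse lay above every WT mouse, with KO1 the highest. With that spot left out the difference was 0.43 (SE 0.18), at an unadjusted p of 0.054 and an adjusted p of 0.272 from limma, and the call was not made. With it kept, *Pgm2* was higher by 0.59 (SE 0.19), which is 151% of the WT level, at an unadjusted p of 0.0174 and an adjusted p of 0.169. With the spot kept and the slide row as a block, *Pgm2* was higher by 0.65 and was not called.

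Because both probes were read on the same array, the *Pgm2* signal can be divided by the *Pgm1* signal of the same mouse, which cancels the scaling of the array but not a shift that depends on brightness. Relative to the WT mean, this log2 ratio came to 0.19, -0.18 and 0.00 for WT1 to WT3 and to 1.65, 0.94 and 1.03 for KO1 to KO3. With marked spots kept, the ratio was 2.30-fold higher in KO on average and the groups did not overlap. The highest value, that of KO1, rests on the marked *Pgm2* spot. The 2 differences behind the ratio were smaller after quantile normalization, at -0.38 against -0.61 for *Pgm1* and 0.50 against 0.59 for *Pgm2*. The ratio was chosen after the values were seen and is a description without a test. For comparison, *Pygl* over *Pygb* (mean -0.59, KO minus WT) and *Gys1* over *Gys2* (0.08) overlapped between the groups.

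The promoters of these 2 genes are printed because their differences pointed in opposite directions, and because the study followed Hif1an, which inhibits the transcription factor Hif1α. Each is the 250 bases before the RefSeq start on GRCm38.p6, plus strand, 5′ to 3′: chr4:99929201-99929450 for *Pgm1* and chr5:64092689-64092938 for *Pgm2*. Capitals mark ACGTG or GCGTG on either strand (CACGT or CACGC when read on this one), the core letters that hypoxia-inducible factors bind.
Pgm1: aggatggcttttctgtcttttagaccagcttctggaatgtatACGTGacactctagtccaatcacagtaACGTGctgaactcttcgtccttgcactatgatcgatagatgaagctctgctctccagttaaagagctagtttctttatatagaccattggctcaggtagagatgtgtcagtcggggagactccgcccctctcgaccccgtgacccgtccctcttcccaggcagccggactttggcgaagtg
Pgm2: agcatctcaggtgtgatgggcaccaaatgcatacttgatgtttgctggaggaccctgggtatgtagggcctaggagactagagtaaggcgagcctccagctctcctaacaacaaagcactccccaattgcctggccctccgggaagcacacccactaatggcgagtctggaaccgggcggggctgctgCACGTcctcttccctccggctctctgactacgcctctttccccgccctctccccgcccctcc
The *Pgm1* window holds 2 matches and the *Pgm2* window 1. Of all 32851 promoter windows of the same length, 38.6% hold at least 1 match and 13.4% hold 2 or more. Of the 9 windows of the members, 6 hold a match and 55.6% hold 2 or more. This difference was not tested, and a match is not evidence of binding. Of the other members, *Ppp1r3c* has 3 matches, *Pygb* and *Pygl* 2 each, *Ugp2* 5 in one of its 2 windows and 0 in the other, and *Gbe1* and *Gys1* 0. The table used holds no window for *Gys2*.

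All 4 other genes of synthesis had a lower mean in KO, and the 2 of them that could be tested with marked spots left out did not pass. *Gys1*, the glycogen synthase of muscle and most tissues, read 3.00, 3.26 and 3.11 in the WT and 2.62, 2.87 and 2.97 in the KO mice. The groups did not overlap, although WT1 and KO3 nearly met. The mean difference was -0.31 (SE 0.15), 80.8% of the WT level, at an unadjusted p of 0.0872 and an adjusted p of 0.332 from limma.

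*Gys2*, the synthase isoform known from liver, was well above background in BAT and read 1.55, 2.16 and 1.61 in the WT and 1.21, 1.42 and 1.53 in the KO mice. WT2 stood above the other WT mice, and 4 of the 6 spots were marked. With marked spots kept the difference was -0.38 (SE 0.20), at an unadjusted p of 0.0974 and an adjusted p of 0.32 from limma, and without WT2 it was -0.19.

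*Ugp2*, the UDP-glucose pyrophosphorylase, read 3.13, 3.29 and 2.88 in the WT and 2.59, 2.79 and 2.80 in the KO mice, with WT3, KO1 and KO2 marked. The groups did not overlap, but WT3 and KO3 lay close together. With marked spots kept *Ugp2* was lower by 0.38 (SE 0.15, 77.1% of the WT level), at an unadjusted p of 0.0457 and an adjusted p of 0.235 from limma. In the fit of every probe with marked spots kept, its only probe was not called, at an unadjusted p of 0.0577 from limma. The gene-level call was lost in 10 of 13 further alternatives, among them leaving out any single mouse except WT3.

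The branching enzyme *Gbe1* was read by 2 probes, and on both the groups overlapped. A_51_P273684 read 3.73, 4.17 and 3.86 in the WT and 3.45, 3.58 and 3.83 in the KO mice. A_65_P10159 read 2.27, 2.56 and 2.38 against 1.83, 2.33 and 2.17, with 5 marked spots. The first probe gave a difference of -0.25 (SE 0.23) from 2 mice per group, at an adjusted p of 0.601 from limma.

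Glycogen phosphorylase is encoded by several genes, of which *Pygl* is named for liver and *Pygb* for brain. *Pygl* read 4.64, 4.88 and 4.59 in the WT and 4.12, 4.17 and 4.38 in the KO mice. No KO mouse reached the lowest WT mouse, and 4 of the 6 spots were marked. With marked spots kept *Pygl* was lower by 0.48 (SE 0.15, 71.6% of the WT level), at an unadjusted p of 0.0132 and an adjusted p of 0.151 from limma. The call was lost with the slide row as a block (-0.37, unadjusted p 0.15) and under quantile normalization.

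*Pygb* carried no marked spot. Its brighter probe, A_52_P350664, read -0.40, -1.54 and -0.42 in the WT and -0.61, -0.46 and -0.97 in the KO mice, and the other probe, A_51_P485810, read -2.39, -2.87 and -2.06 against -2.54, -2.12 and -2.16. WT2 was the lowest mouse on both probes and the groups overlapped. The difference was 0.11 (SE 0.33, 95% confidence interval -0.68 to 0.89) on the brighter probe and 0.17 (SE 0.24) on the other. Without WT2 the brighter probe gave -0.27, so 1 mouse set the sign.

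*Ppp1r3c*, a targeting subunit of protein phosphatase 1 that favours glycogen storage, read 2.08, 2.18 and 2.18 in the WT and 2.28, 1.81 and 2.26 in the KO mice. KO2 was lower than the other 5 mice and KO1, whose spot was marked, the highest. The difference of -0.11 (SE 0.19, 95% confidence interval -0.58 to 0.35) did not pass the test and was 0.11 in the processed values that the authors deposited.

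**Figure D2:**
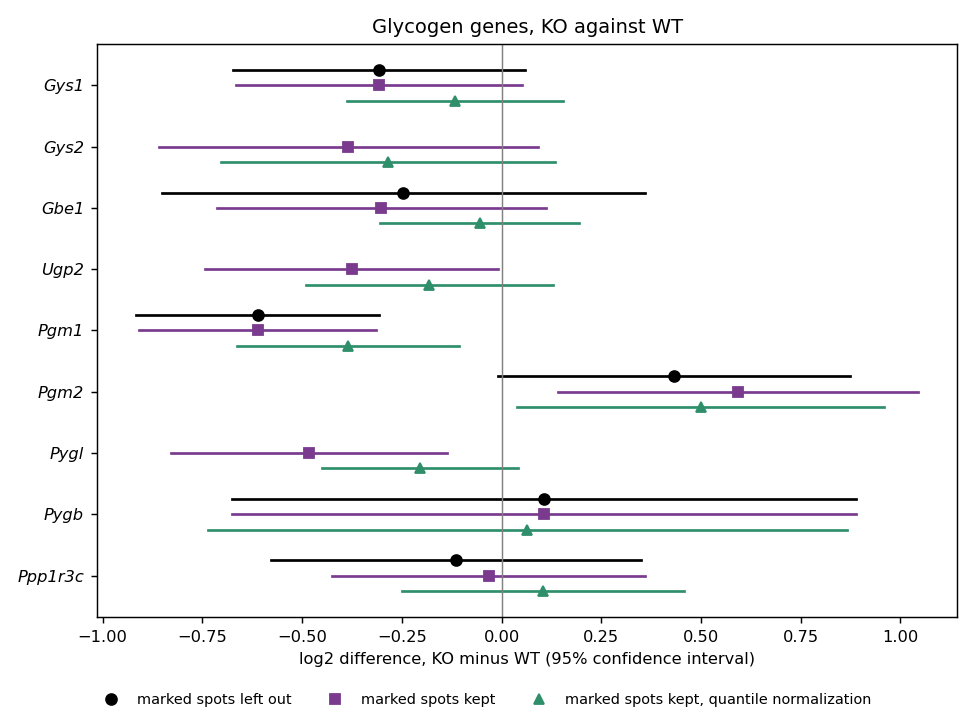
Log2 difference, KO minus WT (x axis), for each member gene (y axis) with 95% confidence intervals from limma, with marked spots left out (black), kept (purple), and kept after quantile normalization (green). The Pgm1 interval lies below 0 in all 3 fits, Pygl and Ugp2 reach 0 after quantile normalization, and Pgm2 lies above 0 in the fits that keep its marked spot.

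Counted over the genes, 4 of 6 tested members had a lower mean in KO with marked spots left out, with a median difference of -0.18, beside 52.9% of all 14711 tested genes and a median of -0.03. Of these 6, 1 was called lower (*Pgm1*) and 0 higher at an unadjusted p under 0.05, while 8.84% of all tested genes were called lower and 10.1% higher. In the fit of every probe, 1 of 7 tested member probes was called lower and 0 higher, beside 6.75% and 9.73% of all 31238 probes. With marked spots kept, 7 of 9 members were lower, with a median of -0.31 against -0.06 over all 16110 genes. Then 3 were called lower (*Pgm1*, *Pygl* and *Ugp2*) and 1 higher (*Pgm2*), beside 11.1% and 9.47% of all genes. All KO values lay below all WT values for 5 of the 9 and above for 1, beside 17.1% and 11.6% of all genes. No member passed Benjamini-Hochberg adjustment in either limma fit, which called 0.184% of all genes with marked spots left out and 0.472% with them kept.

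The lower values of most members lay among the brightest genes, and those genes were lower in KO in general. With the 75th percentile as the scale and marked spots kept, the brightest decile of tested genes had a median difference of -0.29 with 94.2% of genes lower and 17.9% called lower. *Gbe1*, *Pgm1* and *Pygl* lay in that decile, and *Gys1*, *Ppp1r3c* and *Ugp2* in the next, whose median was -0.21. *Gys2* lay in the eighth decile, with a median of -0.13, and *Pygb* in the fifth, at 0.03. *Pgm2* lay in the fourth decile, where the median was 0.09 and 15.7% of genes were called higher. Quantile normalization, which gives all arrays the same distribution, brought the median of the brightest decile to -0.03.

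After quantile normalization with marked spots kept, *Pgm1* was lower by 0.38 (SE 0.11, unadjusted p 0.0145, adjusted p 0.162 from limma) and *Pgm2* higher by 0.50 (SE 0.19, unadjusted p 0.0377, adjusted p 0.238). *Pygl* (-0.20, unadjusted p 0.0876) and *Ugp2* (-0.18, unadjusted p 0.204) no longer passed. *Gys2* was at -0.29, *Gys1* at -0.12, *Gbe1* at -0.06, *Pygb* at 0.06 and *Ppp1r3c* at 0.10. Which scaling is closer to the RNA content of the tissue was not tested.

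**Figure D3:**
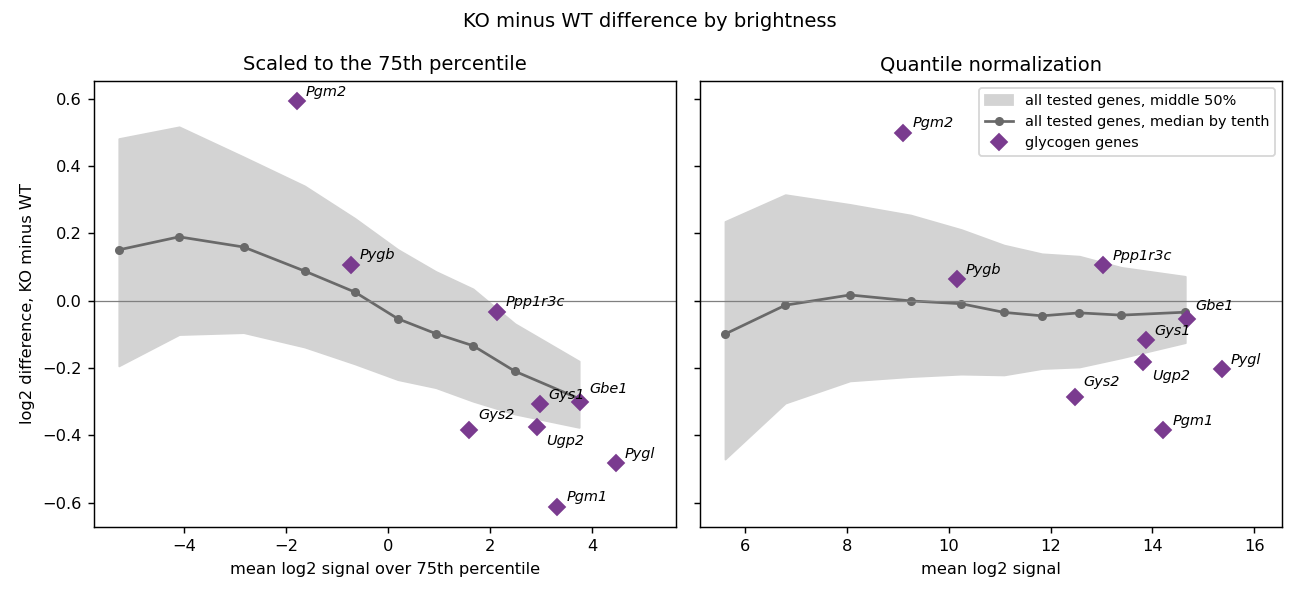
Log2 difference, KO minus WT (y axis), against mean log2 signal (x axis) with marked spots kept, scaled to the 75th percentile (left) and after quantile normalization (right). The grey line joins the medians of brightness deciles of all 16110 tested genes, the band holds the middle 50% of each, and diamonds are the 9 members; the line falls to -0.29 in the brightest decile on the left and stays near 0 on the right, where Pgm1 lies at -0.38 and Pgm2 at 0.50.

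The slide held WT1 and WT2 in its first row and WT3 with the 3 KO mice in its second. With the row as a block the difference rests on 1 WT mouse, WT3, against the KO mice, while WT1 and WT2 add only to the estimate of the spread, and WT3 is assumed to vary like the others. *Pgm1* was then lower by 0.56 (SE 0.21, unadjusted p 0.0364, adjusted p 0.56 from limma) at the gene level, no other member was called, and *Pgm1* was not called in the fit of every probe. With the muscle list as a covariate *Pgm1* was lower by 0.64 (SE 0.15, unadjusted p 0.00459, adjusted p 0.143 from limma). In bulk tissue, fewer cells of a type and less RNA per cell cannot be told apart.

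Beyond the 9 members, 28 other genes of glycogen metabolism were compared, all with a probe, and 25 could be tested with marked spots left out. Of these, 16 had a lower mean in KO, 3 were called lower and 2 higher at an unadjusted p under 0.05, and 0 passed adjustment in limma, with a median of -0.18. Over all tested genes 52.9% had a lower mean, with 8.84% called lower and 10.1% higher, so the calls in the list lie near the background. *Gaa*, the lysosomal glucosidase, was lower by 0.59 (SE 0.16), *Phka2*, a regulatory subunit of phosphorylase kinase, by 0.41 (SE 0.13) and *Gsk3a*, a kinase that inactivates glycogen synthase, by 0.42 (SE 0.17).

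*Gaa* read 1.79, 2.02 and 1.89 in the WT, the last marked, and 1.30, 1.22 and 1.41 in the KO mice. The groups did not overlap, but on its dimmer probe they did, with a difference of means of -0.28. *Phka2* was lower on both of its brighter probes without overlap (1.39, 1.54 and 1.53 against 1.04, 1.01 and 1.17 on A_55_P2140288). *Gsk3a* was also lower without overlap on 2 probes, from 3.06, 3.40 and 3.13 to 2.75, 2.59 and 2.99 on the brighter, but it passed in 7 of 20 alternatives and fell short under quantile normalization (-0.22, unadjusted p 0.0817 from limma) and in SAM. With marked spots kept the list had 4 lower calls, the fourth being *Gyg*, glycogenin, which primes the chain (-0.42, SE 0.13, unadjusted p 0.0162, adjusted p 0.164 from limma), and which was named after its value was seen.

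The 2 genes called higher were both relatives of the phosphoglucomutases, and in a list of 3 that is a description. *Pgm2l1*, which makes glucose-1,6-bisphosphate, the cofactor of phosphoglucomutase, read -1.53, -1.84 and -1.39 in the WT and -1.17, -0.67 and -1.14 in the KO mice (difference 0.59, SE 0.20). It passed in 17 of 20 alternatives, and with the slide row as a block it was higher by 0.40. On its dimmer probe, which read -5.01, -5.11 and -4.44 against -4.24, -4.73 and -3.95, the groups overlapped. *Pgm3*, which acts on N-acetylglucosamine phosphate, read -1.08, -1.04 and -1.01 against -0.51, -0.66 and -0.29 (0.58, SE 0.21, with 1 marked spot per group left out), and passed in 11 of 20 alternatives. Its second probe read -3.03, -4.87 and -3.04 against -2.82, -2.89 and -2.97. It took the place of the first where too few unmarked values of that probe were left. This held without WT1 (1.06), WT2 (0.14), KO2 or KO3 and with the slide row as a block (0.15), so the alternatives mix both probes. *Pgm5*, which lacks much of the enzyme activity, was at -0.01. None of the 3 genes of glucose-6-phosphate hydrolysis passed the threshold, nor did any of the 7 tested genes of protein phosphatase 1 and its targeting subunits. Leaving out WT2, WT3 or KO1 took the lower calls of the whole list from 3 to 1, leaving out WT2 or KO2 took the higher calls from 2 to 0, and with the slide row as a block they were 0 lower and 1 higher.

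**Figure D4:**
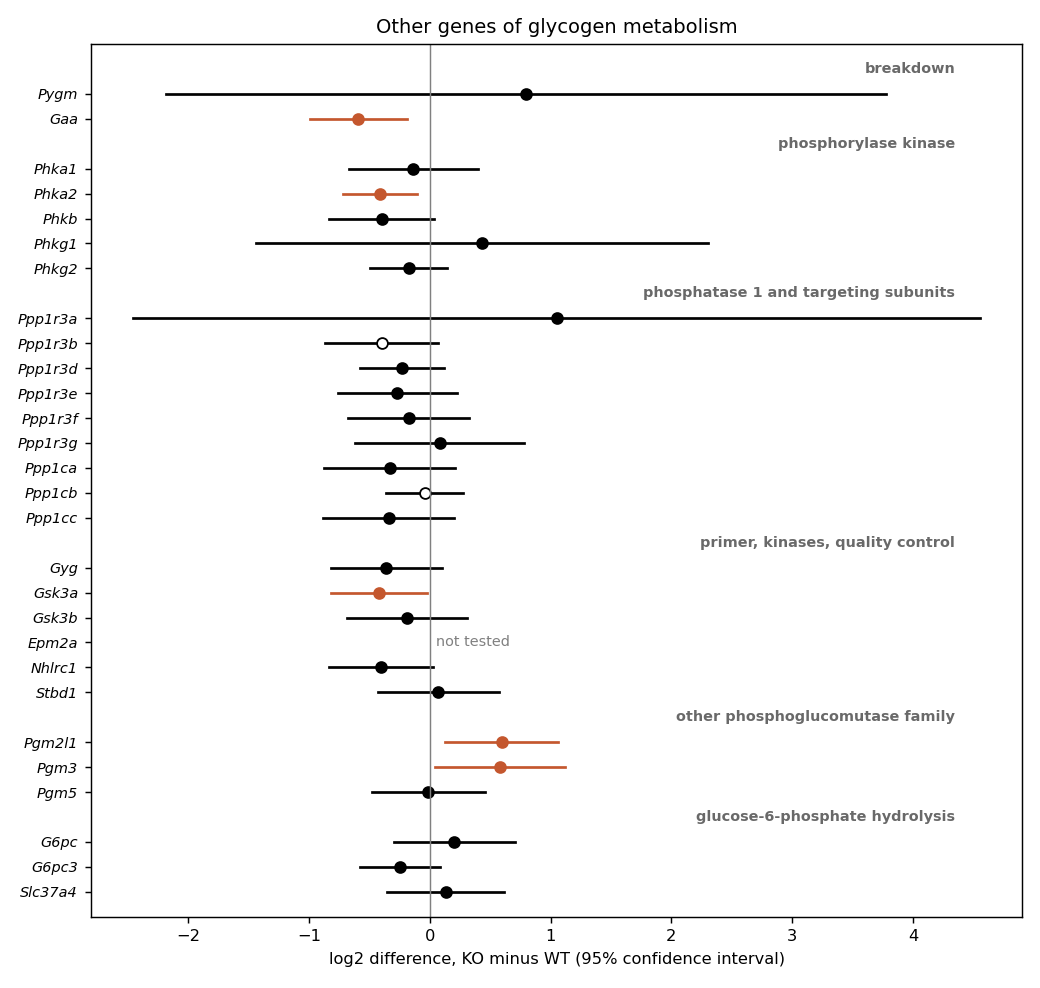
Log2 difference, KO minus WT (x axis), with 95% confidence intervals from limma for 27 of 28 other genes of glycogen metabolism grouped by role (y axis); Epm2a was not tested. Orange marks an unadjusted p under 0.05 (3 lower, 2 higher), open points genes tested with marked spots kept, and the widest intervals belong to the muscle forms Pygm, Phkg1 and Ppp1r3a.

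Among the muscle forms of the pathway, muscle glycogen phosphorylase, *Pygm*, varied with the muscle transcripts of each mouse. It read 0.44, -0.54 and -3.60 in the WT and -2.22, 1.60 and -0.68 in the KO mice on its brighter probe. The muscle marker list, which does not hold *Pygm*, put the 6 mice in the same order, at 2.26, 1.44 and -4.35 and at -0.06, 3.36 and 1.40. The difference of 0.80 (SE 1.26) did not pass the test and turned to -0.41 with the list as a covariate. *Phkg1*, the catalytic subunit of muscle phosphorylase kinase, differed by 0.43 (SE 0.79), its regulatory partner *Phka1* by -0.14 (SE 0.23), and *Ppp1r3a*, the muscle targeting subunit, by 1.05 (SE 1.48) with 4 of its 6 spots above background.

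**Figure D5:**
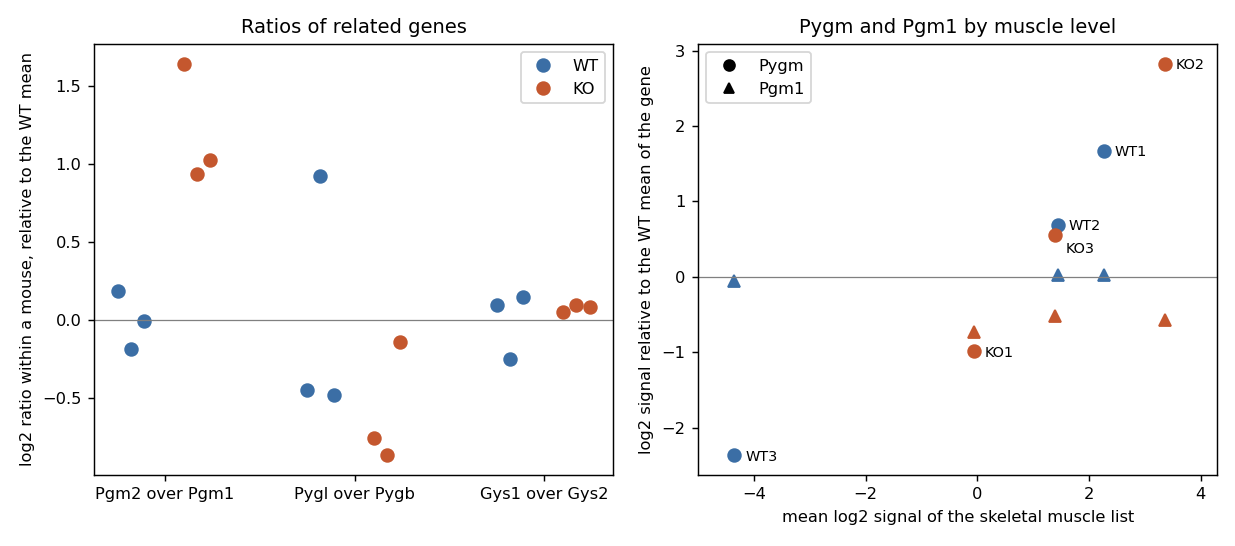
Left: log2 ratio of 2 genes within each mouse relative to the WT mean (y axis), where Pgm2 over Pgm1 is 0.94 to 1.65 in KO and at most 0.19 in WT, while the other 2 ratios overlap. Marked spots are kept, and the 1.65 of KO1 rests on a marked Pgm2 spot. Right: log2 signal of Pygm (circles) and Pgm1 (triangles), each relative to its own WT mean, against the mean log2 signal of 20 skeletal muscle genes in that mouse; Pygm rises with the list, and Pgm1 is lower in all 3 KO mice at each muscle level.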

How the data were processed

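BAT RNA of 3 WT and 3 miR-22 KO mice, extracted with TRIzol, was labelled with 1 dye and hybridised to Agilent mouse arrays on 1 slide. The intensity values that the authors deposited are, per the file headers, the processed signal of Agilent Feature Extraction 11.5.1.1 (the submitters' processing notes name version 10.7), after background subtraction and with no scaling across the slide. A second table that the authors deposited holds log2 values of 27497 probes, 6 of the 11 member probes among them. Their processing is not given in the sources used here, and the 6 columns share 1 maximum. They served as an alternative.

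Signals were scaled by their array's 75th percentile over spots that are not controls (1435 to 2633) and taken to log2. Spots marked by the scanner software as uneven or as population outliers were left out. A probe was tested if well above background on at least 3 arrays with at least 2 unmarked values per group. Probes were named through their RefSeq accession (GRCm38.p6; 33767 of 56605 probes, 59.7%), and the brightest testable probe stood for a gene. The array design names another build, so probe coordinates are not given. KO was compared with WT in limma 3.58.1 (R 4.3.3, lmFit and eBayes, two-sided) over all genes, with Benjamini-Hochberg adjustment over all of them. The threshold was an unadjusted p under 0.05, as in the study's methods, whose test (SAM) was an alternative. The method was tested on simulated data. No spot was saturated, and 3 mice per group limit the precision.

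The members, the gene lists and the tests were chosen with earlier results of these data known. Of the listed genes other than members, the text names those past the threshold, the 4 muscle forms and *Pgm5*, *Gyg* and *Epm2a*, which were named after their values were seen. One gene of the listed pathway is not reported here and is left out of the list's counts. Alternatives were other scalings, filters, tests and treatments of marked spots, the slide row as a block, the muscle list as a covariate and leaving out each mouse.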

Additional observations from a re-analysis of the deposited data

How the results depend on the processing

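*Pgm1* was lower in KO, past an unadjusted p of 0.05, in all 20 alternatives at the gene level, of which the slide row as a block rests on 1 WT mouse. *Gys1* (-0.38 to -0.12) and *Gbe1* (-0.30 to -0.02, 15 alternatives) stayed lower and never passed. *Pgm2* stayed higher (0.33 to 0.59) and passed in 4 of 17. With marked spots kept, *Pygl* passed in 11 of 13 further alternatives (-0.56 to -0.20), *Ugp2* in 3 of 13 (-0.58 to -0.16) and *Gys2* in 0 of 13 (-0.50 to -0.19). Those settings for these 3 genes were added after the data were seen.

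Keeping marked spots raised the members called lower from 1 to 3 genes and from 1 to 2 probes and the lower members from 4 to 7, since 3 more genes could be tested. It also took the members called higher from 0 to 1, since the KO1 spot of *Pgm2* entered. The higher call was also 1 with marked spots kept and quantile normalization, and in the gene-level count with the filter at all 6 arrays. With the slide row as a block no member probe was called lower (0), *Pgm1* included. Leaving out single mice gave 0 to 1 higher calls among members by gene and by probe, 2 to 4 lower members and a median of -0.38 to -0.14. Without KO3, 3 members could be tested.

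Among the other glycogen genes, the 3 lower calls became 1 with the mean of a gene's probes, 5 with trend and robust eBayes and 0 with the row as a block. The 2 higher calls became 1 in the authors' values, without the filter, with the mean of probes, in the methods' t-test and with the row as a block. Leaving out single mice gave 1 to 5 lower and 0 to 2 higher calls.

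Signs turned for *Ppp1r3c* in the authors' values (0.11) and with marked spots kept and quantile normalization (0.10). With the row as a block *Pygb* was at -0.26 and *Gaa* at 0.47. With the muscle list as a covariate *Pygm* was at -0.41, *Phkg1* at -0.18 and *Ppp1r3a* at -0.28. Leaving out single mice gave -0.27 to 0.30 for *Pygb* (lower without WT2, and -0.0052 without KO2) and -0.64 to 0.31 for *Gaa*. The positive *Gaa* values came with the row as a block and without WT1, where the bright probe could not be tested and the dim probe took its place. The muscle forms ranged from -0.39 to 1.69 for *Pygm*, -0.43 to 1.09 for *Phkg1*, -0.33 to 2.17 for *Ppp1r3a* and -0.35 to 0.076 for *Phka1*, lowest without WT3 for *Pygm* and without KO2 for the other 3.

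The marker lists moved by more than their spread for pan adipocyte (0.048) and hepatocyte (0.19) genes under quantile normalization, and for erythroid (-0.020), lymphocyte (0.062) and hepatocyte (-0.059) genes under normexp. Where not stated, the cause was not tested. No paired analysis was possible because the replicate numbers of the mice only name them. Bright members shifted with the scaling and 3 mice per group limit every comparison.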
